A study of Homo sapiens with 8 samples.

Results

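Noncoding snoRNA host genes are a family of long RNAs that are transcribed and spliced in order to release small nucleolar RNAs (snoRNAs) from their introns. Members were taken as every transcript row of the deposited table whose RefSeq ID maps to a symbol that begins with SNHG, or to GAS5, ZFAS1, DANCR or EPB41L4A-AS1. The rule found 28 genes with 80 transcript rows, of 25695 gene symbols and 53216 rows in all. RNA of HEK293T cells, an established line derived from human embryonic kidney, was sequenced in 8 libraries. WT RiboMinus (2 libraries) is total RNA of unmodified cells after removal of ribosomal RNA. WT NAD-Capture (3 libraries) is RNA of the same unmodified line in which ADP-ribosyl cyclase exchanged the nicotinamide of a 5′ NAD cap for an alkyne, which was clicked to biotin and bound to streptavidin. The captured WT libraries are meant wherever captured WT is written below. DXO-KO NAD-Capture (3 libraries) is RNA captured the same way from HEK293T cells labelled as a knockout of DXO, an enzyme that removes NAD caps from RNA. No treatment is labelled for any group. The labels do not say whether the knockout is 1 clone, nor whether replicates are separate cultures, so p-values measure only the spread between these libraries. RiboMinus RNA went into a TruSeq kit and captured RNA into a SMARTer low-input kit, so capture and kit cannot be told apart. Captures without the cyclase, the background control of the protocol, were not analysed here.

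In such a host gene the product that is kept is usually the intron. Splicing releases the intron as a lariat, which is debranched and trimmed to a snoRNA held by its proteins. Box C/D snoRNAs guide 2′-O-methylation and box H/ACA snoRNAs guide pseudouridylation, mostly of ribosomal RNA, and scaRNAs act likewise on spliceosomal RNAs in Cajal bodies. The spliced exons often start with a 5′ terminal oligopyrimidine (TOP) run, the start element of ribosomal protein mRNAs, and many hold short reading frames that send them to nonsense-mediated decay. Host RNAs such as GAS5, ZFAS1, SNHG1 and DANCR are also widely studied in cell growth. A mature intronic snoRNA is cut out of a longer RNA and so is not expected to carry a cap made at transcription start, while the spliced host RNA keeps the original 5′ end.

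Depth differed strongly between the groups. Levels are in FPKM, the fragments of a transcript per kilobase of its length at a common library depth. The low values of the table lie near whole multiples of 1 fragment, which put the depth at 10772785 and 8688697 fragments in RiboMinus replicates 1 and 2. It was 191479, 166464 and 249580 fragments in captured WT replicates 1 to 3, and 812226, 138349 and 80220 in DXO-KO-labelled replicates 1 to 3. A level of 1 fragment at 1 kb of effective length was therefore 0.0928 and 0.115 FPKM in RiboMinus, 4.01 to 6.01 FPKM in captured WT RNA, and 1.23, 7.23 and 12.5 FPKM in DXO-KO-labelled replicates 1 to 3. DXO itself was 11.2 and 14.3 FPKM in RiboMinus, 33.2, 17.2 and 27.1 FPKM in captured WT RNA, and 128, 61.6 and 71.7 FPKM in the DXO-KO-labelled libraries. Its RNA was thus higher where a knockout is labelled, so the label is used as deposited and every direction below carries that limit. Of 8 marker genes of HEK293T cells, 7 had a mean of at least 1 FPKM in RiboMinus, the exception being PAX2. A list of 10 markers of other cell types summed to 1.56 to 1.89 FPKM in RiboMinus, 14.6 to 25.2 FPKM in captured WT RNA and 12.4 to 16.8 FPKM in the DXO-KO-labelled libraries, with PTPRC and HBB at 0 in all 8; its part in the results below was not tested.

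The 5′ ends are shown first, because the captured group sits there. NAD holds an adenosine and can begin a transcript only in the place of an A, whereas a TOP element begins with a C. The RefSeq promoter table (GRCh38.p14) held an entry for 24 of the 28 hosts. The lines give 40 bases of 7 hosts, 15 before the annotated start and 25 from it, 5′ to 3′ on the strand of the gene. Capitals mark the longest unbroken run of C and T that begins with a C within 3 bases of that start. GAS5, SNHG3, EPB41L4A-AS1 and DANCR are hosts whose levels differed between libraries in the tests below, and SNHG5, ZFAS1 and SNHG19 show a pyrimidine run that begins exactly at the start.
GAS5 (chr1:173869021-173869060, minus strand): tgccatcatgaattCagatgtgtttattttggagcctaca
SNHG3 (chr1:28505928-28505967, plus strand): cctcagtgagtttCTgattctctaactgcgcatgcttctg
EPB41L4A-AS1 (chr5:112160511-112160550, plus strand): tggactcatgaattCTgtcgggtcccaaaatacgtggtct
DANCR (chr4:52712379-52712418, plus strand): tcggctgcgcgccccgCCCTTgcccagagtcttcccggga
SNHG5 (chr6:85678709-85678748, minus strand): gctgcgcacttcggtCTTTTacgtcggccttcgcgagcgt
ZFAS1 (chr20:49278627-49278666, plus strand): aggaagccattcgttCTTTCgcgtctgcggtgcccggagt
SNHG19 (chr16:2155334-2155373, minus strand): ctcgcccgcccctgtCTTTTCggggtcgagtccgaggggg

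A run of 5 or more pyrimidines in that window was found in 10 of the 24 hosts (41.7%), against 13.1% of 27305 promoters in the table. With a minimum of 6 it was 5 of 24 (20.8%) against 8.54%. The minimum of 6 was set first and 5 was chosen after its counts had been seen. The annotated first base was C in 10 of 24 hosts (41.7%, against 14.99% of all promoters) and A in 7 of 24 (29.2%, against 44.3%). Among the 7 hosts printed, only GAS5 has A at the annotated start. SNHG22, which is called in the tests below and not printed, has A there too. Start sites were taken from the annotation and were not measured in these libraries.

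In RiboMinus RNA the host genes covered a wide range of levels per length. Of the 28 genes, 16 were above 0 in all 8 libraries, and SNHG18 and SNHG27 were listed at 0 in every one. The summed FPKM of the family was 2188 and 1846 in RiboMinus, 1967, 1529 and 1888 in captured WT RNA, and 1477, 2164 and 3614 in DXO-KO-labelled replicates 1 to 3. SNHG29, the host of SNORD49A, SNORD49B and SNORD65, was the highest host in 5 of the 8 libraries. It was 334 FPKM in both RiboMinus libraries, 285, 364 and 440 FPKM in captured WT RNA, and 210, 452 and 608 FPKM in the DXO-KO-labelled libraries. The 3 groups of SNHG29 overlapped.

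**Figure D1:**
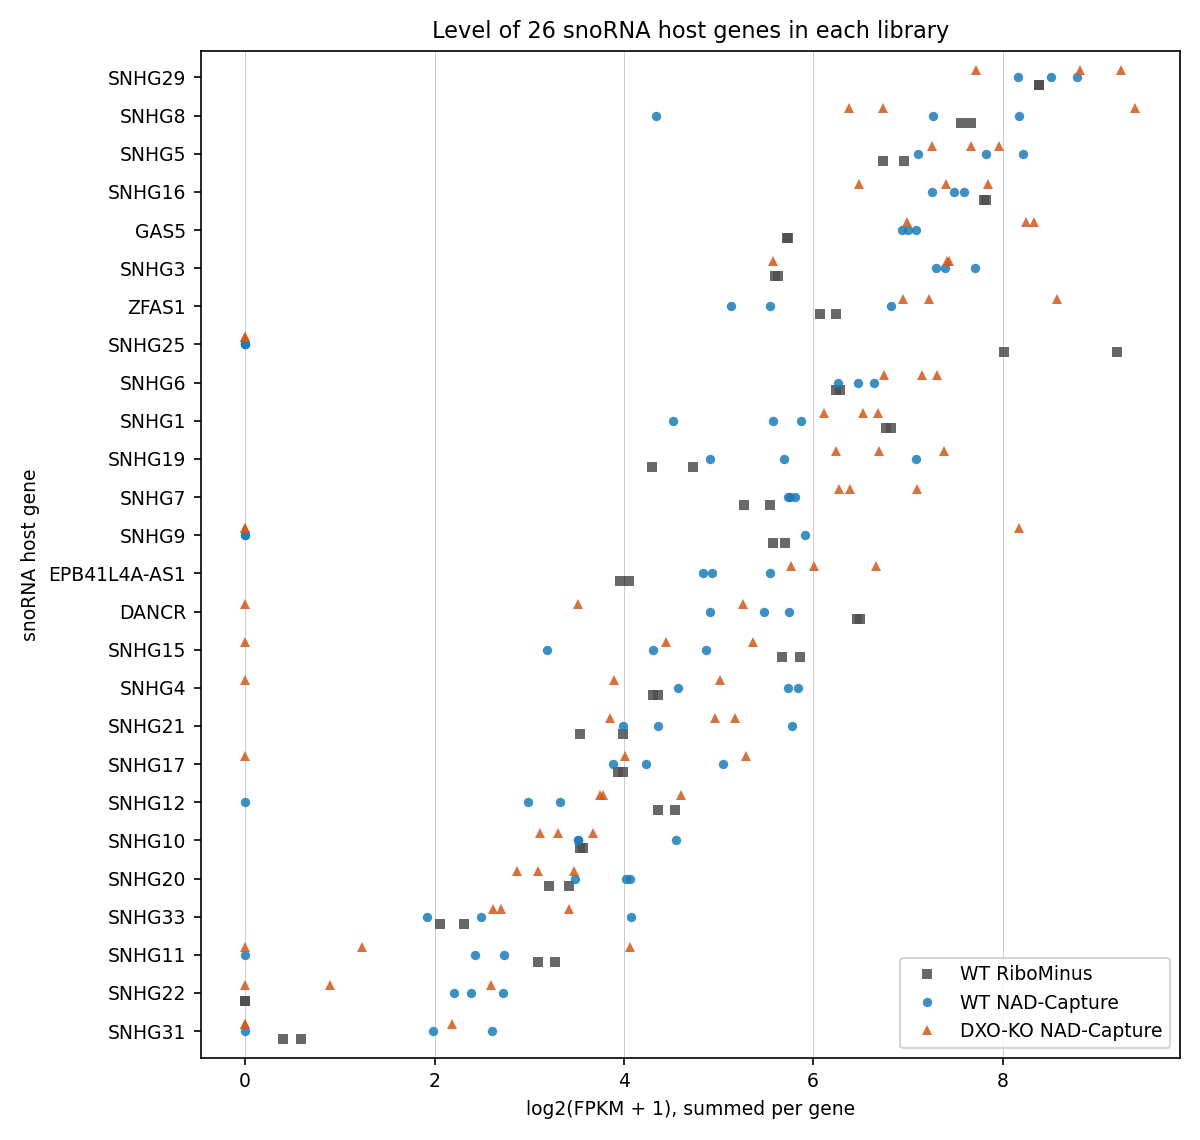
Level of each host gene on the x axis as log2(FPKM + 1), FPKM summed over its transcript rows, for the 26 hosts above 0 in at least 1 library (y axis, ordered by mean FPKM). Squares are the 2 WT RiboMinus libraries, circles the 3 WT NAD-Capture libraries and triangles the 3 DXO-KO-labelled libraries; GAS5, SNHG3 and EPB41L4A-AS1 show every WT NAD-Capture point to the right of RiboMinus, and DANCR shows the opposite.

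SNHG16, SNHG8, SNHG5 and SNHG6 are abundant hosts that were called in no comparison. SNHG16, which carries SNORD1A to SNORD1C, was 222 and 225 FPKM in RiboMinus, 179, 192 and 151 FPKM in captured WT RNA, and 88.6, 168 and 228 FPKM in the DXO-KO-labelled libraries. SNHG8, the host of SNORA24, was 202 and 188 FPKM in RiboMinus, 288, 19.2 and 153 FPKM in captured WT RNA, and 82.2, 106 and 676 FPKM in the DXO-KO-labelled libraries. SNHG8 varied more between libraries of a group than between groups. SNHG5, the host of U50 snoRNAs, was 123 and 106 FPKM in RiboMinus, 297, 137 and 226 FPKM in captured WT RNA, and 151, 203 and 249 FPKM in the DXO-KO-labelled libraries. SNHG5 was lower in both RiboMinus libraries than in all 6 captured ones. SNHG6, the host of SNORD87, was 76.7 and 74.5 FPKM in RiboMinus, 98.6, 75.8 and 87.6 FPKM in captured WT RNA, and 106, 157 and 141 FPKM in the DXO-KO-labelled libraries.

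Levels of the other hosts are given as ranges over the 8 libraries. SNHG7 ranged from 37.6 to 136 FPKM, SNHG9 from 0 to 287, SNHG4 from 0 to 56.4, SNHG21 from 10.6 to 53.9 and SNHG17 from 0 to 38.0. SNHG12 ranged from 0 to 23.3 FPKM, SNHG10 from 7.67 to 22.5, SNHG20 from 6.32 to 15.8, SNHG33 from 2.78 to 15.9, SNHG11 from 0 to 15.7 and SNHG31 from 0 to 5.08. In RiboMinus the mean levels of neighbours in the order, such as SNHG5 (115 ± 12.1 FPKM, SD, n = 2) and SNHG1 (110 ± 2.60), were closer than their spread, while SNHG16 (224 ± 2.198) and SNHG29 (334 ± 0.368) were far apart. The spans of 12 hosts overlap another gene in RefSeq, among them RCC1 with SNHG3, EPB41L4A with EPB41L4A-AS1, ZBTB37 and GAS5-AS1 with GAS5, and MYO5B with SNHG22. Whether strand was used in counting is not given in the sources used here, so fragments of such partners on opposite strands cannot be told apart. For partners on the same strand, how fragments were divided between the genes was not tested.

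Captured WT was set against WT RiboMinus first, which asks which host RNAs have another share in the captured fraction than in total RNA. GAS5, SNHG3, EPB41L4A-AS1 and SNHG22 were higher after capture and DANCR and SNHG25 were lower, by an adjusted p under 0.05 in limma with Benjamini-Hochberg adjustment over all genes. These are 4 higher and 2 lower of 26 hosts tested. SNHG22 was at 0 in RiboMinus and could only count as higher. SNHG25 was at 0 in captured WT RNA and could only count as lower. Both enter each count of this comparison. Over all 16859 genes tested, 24.5% were called (16.5% higher and 7.94% lower), so the hosts' share is near the background. The median log2 fold change of the hosts was 0.33, against 0.20 over all genes, and 16 hosts had a higher and 10 a lower mean (55.0% of all genes had a higher one). Groups did not overlap for 10 hosts higher after capture and 7 lower, against 28.6% and 27% of all genes. In bulk RNA, fewer cells with an RNA and less of it per cell cannot be told apart.

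GAS5, a growth arrest gene whose introns hold a series of C/D snoRNAs, was 52.1 and 51.9 FPKM in RiboMinus. It was 121, 127 and 135 FPKM in captured WT RNA, and 126, 303 and 322 FPKM in the DXO-KO-labelled libraries. All 6 captured libraries lay above both RiboMinus libraries. The log2 fold change of captured WT over RiboMinus was 1.28 (SE 0.162, limma, adjusted p = 0.00648). The captured values rest on 10.9, 9.8 and 15.9 fragments in captured WT RNA and 48.0, 19.6 and 10.6 in the DXO-KO-labelled libraries.

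SNHG3, the host of the H/ACA snoRNAs SNORA73A and SNORA73B (U17), which act in cleavage of pre-rRNA, was 48.4 and 47.4 FPKM in RiboMinus. It was 157, 209 and 167 FPKM in captured WT RNA, and 46.5, 170 and 172 FPKM in the DXO-KO-labelled libraries. The captured WT libraries lay wholly above RiboMinus, while DXO-KO-labelled replicate 1 was just below it. The log2 fold change of captured WT over RiboMinus was 1.86 (SE 0.196, limma, adjusted p = 0.00426). RCC1, a chromatin-bound guanine exchange factor whose span overlaps SNHG3, was 139 and 135 FPKM in RiboMinus, listed at 0 in all 3 captured WT libraries (limma adjusted p = 0.000761), and 0.00353, 20.4 and 0 FPKM in the DXO-KO-labelled libraries. How fragments were divided between RCC1 and SNHG3 was not tested, so both calls carry that limit.

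EPB41L4A-AS1, the host of SNORA13, was 14.5 and 15.7 FPKM in RiboMinus. It was 45.8, 29.5 and 27.5 FPKM in captured WT RNA, and 53.2, 63.5 and 101 FPKM in the DXO-KO-labelled libraries. The 3 groups did not overlap and stood in that order. Its log2 fold change of captured WT over RiboMinus was 1.10 (SE 0.284, limma, adjusted p = 0.0445). It rests on more fragments than GAS5 in every captured library, 23.8, 13.1 and 18.6 in captured WT RNA and 116, 23.6 and 21.7 in the DXO-KO-labelled libraries. Centred on the median gene, the fold change fell to 0.64 and was no longer called.

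DANCR, named for its block of differentiation in progenitor cells and the host of SNORA26, was 88.9 and 87.0 FPKM in RiboMinus. It was 52.8, 43.7 and 28.96 FPKM in captured WT RNA, and 37.4, 10.4 and 0 FPKM in the DXO-KO-labelled libraries. All captured libraries lay below both RiboMinus libraries, and the NAD-Capture groups overlapped. The log2 fold change of captured WT over RiboMinus was -1.10 (SE 0.290, limma, adjusted p = 0.0470), close to the threshold. The captured values were 7.7, 5.4 and 5.3 fragments in captured WT RNA and 22.5, 1.1 and 0 in the DXO-KO-labelled libraries. In DXO-KO-labelled replicate 3, 3 fragments would have been 52.9 FPKM. A level as in captured WT RNA would thus have given fewer than 3 fragments there and could have been missed.

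SNHG22 and SNHG25 were called on very few fragments or on a row whose depth is unknown. SNHG22, the host of SCARNA17, was listed at 0 in both RiboMinus libraries. It was 3.63, 4.22 and 5.61 FPKM in captured WT RNA and 0.866, 5.04 and 0 FPKM in the DXO-KO-labelled libraries. Those captured values are 1.0, 1.0 and 2.1 fragments and 1.0, 1.0 and 0 fragments, and its adjusted p of 0.0178 in limma is no bound on a fold. SNHG25, the host of SNORD104, was 593 and 258 FPKM in RiboMinus and 0 in all 6 captured libraries. Its row is paired with a transcript of 106 nt. In 5 of the 6 captured libraries a single fragment on a row of 133 nt was worth 334 FPKM or more. That is above the lower RiboMinus value, but in most of these libraries it was below the higher one. The value of 1 fragment on a row of 106 nt was not computed. Whether a level like that in RiboMinus could be seen there is thus unknown. That limit holds for both limma calls (adjusted p = 0.00138 for captured WT and 0.00493 for the DXO-KO-labelled libraries).

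SNHG1 and SNHG15 had lower means after capture, and whether they were called depended on the setting. SNHG1, the host of SNORD22 and of 7 further C/D snoRNAs, was 112 and 108 FPKM in RiboMinus, 22.0, 57.3 and 46.5 FPKM in captured WT RNA, and 102, 91.3 and 68.1 FPKM in the DXO-KO-labelled libraries. Captured libraries all lay below RiboMinus (log2 fold change -1.48, SE 0.426, limma, adjusted p = 0.0594 for captured WT). SNHG15, the host of SNORA9, was 56.9 and 49.9 FPKM in RiboMinus, 8.14, 28.3 and 18.7 FPKM in captured WT RNA, and 40.3, 0 and 20.8 FPKM in the DXO-KO-labelled libraries. It too lay below RiboMinus in all 6 captured libraries (log2 fold change -1.64, SE 0.511, limma, adjusted p = 0.0729 for captured WT). Both passed the threshold when centred on the median gene (log2 fold change -1.93 for SNHG1 and -2.10 for SNHG15), without captured WT replicate 1 (-1.08 and -1.18) and without captured WT replicate 2 (-1.75 and -2.02). SNHG1 passed it also with a mean FPKM of at least 10 and in 1 fit shared by the 8 libraries. Of the remaining abundant hosts, the log2 fold change of captured WT over RiboMinus was 0.87 (SE 0.354) for SNHG5, 0.20 (SE 0.189) for SNHG6, 0.10 (SE 0.234) for SNHG29, -0.32 (SE 0.517) for ZFAS1, -0.37 (SE 0.182) for SNHG16 and -1.02 (SE 1.13) for SNHG8, with limma adjusted p from 0.140 to 0.776.

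The calls of this comparison need both RiboMinus libraries. Without RiboMinus replicate 1 no host was called (19 genes in all), and without replicate 2 there was 1 host, SNHG25 (18 genes in all); the lone sample is then assumed to vary like the other group. Without captured WT replicate 1 there were 10 called hosts. DANCR and EPB41L4A-AS1 lost their call also without captured WT replicate 2, without a filter on low values and among transcript rows, and quantile normalization ended the calls of DANCR and SNHG22. In 1 fit shared by the 8 libraries, GAS5, EPB41L4A-AS1, DANCR and SNHG22 were not called, and SNHG3, SNHG25 and SNHG1 were.

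**Figure D2:**
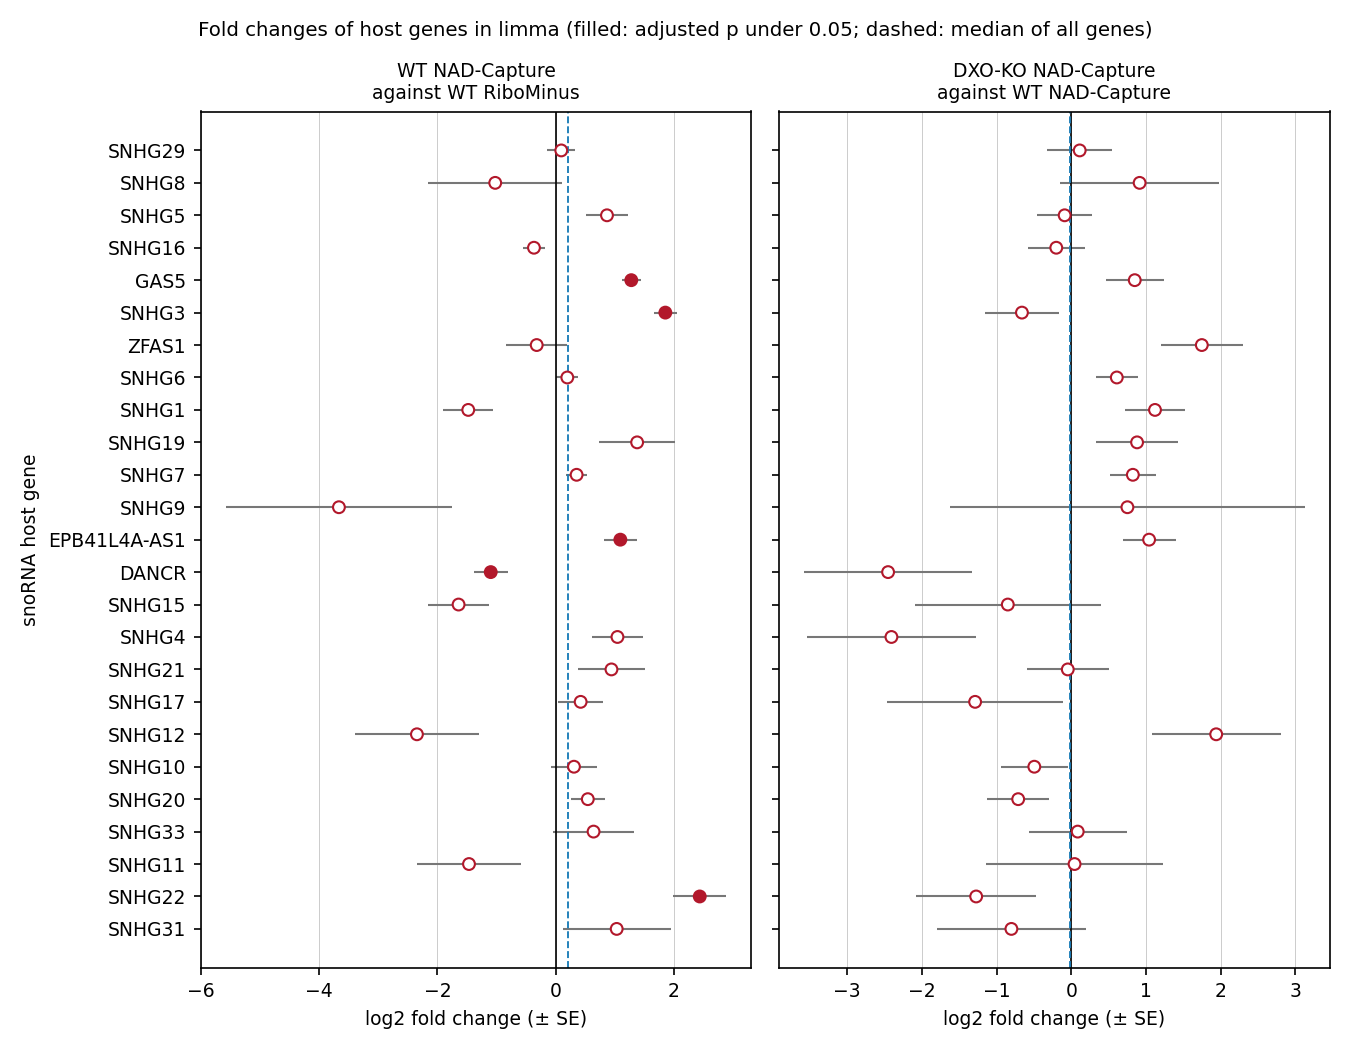
Log2 fold change on log2(FPKM + 1) with its standard error (x axis) for each host (y axis), for WT NAD-Capture over WT RiboMinus on the left and for the DXO-KO-labelled libraries over WT NAD-Capture on the right. Filled points have a limma adjusted p under 0.05 and the dashed line is the median of all genes tested; SNHG25, at 0 in all captured libraries, is left out, and GAS5, SNHG3, EPB41L4A-AS1, SNHG22 and DANCR are filled on the left and none on the right.

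Between the NAD-Capture groups the question is which captured host RNAs differ when DXO is labelled absent, and DXO RNA was higher in those libraries. No host passed the threshold among 25 tested, and 4 had an unadjusted p under 0.05 in limma, all higher in the DXO-KO-labelled libraries. Over all 17594 genes, 6 were called (0.0341%, with 0.0171% higher and 0.0171% lower) and 2926 had an unadjusted p under 0.05. The hosts split into 13 with a higher and 12 with a lower mean (49.6% of all genes had a higher one), and their median log2 fold change was 0.04, against -0.01 over all genes. Each DXO-KO-labelled library exceeded every captured WT library for 6 hosts, EPB41L4A-AS1, SNHG1, SNHG6, SNHG7, SNHG12 and ZFAS1, against 11.8% of all genes. The reverse held for SNHG20, against 11.5% of all genes. SNHG7, SNHG12 and SNHG20 are named for that separation, after their values were seen.

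ZFAS1, the host of SNORD12, SNORD12B and SNORD12C, had the smallest p among hosts. It was 66.0 and 74.7 FPKM in RiboMinus, 112, 45.8 and 34.2 FPKM in captured WT RNA, and 123, 149 and 380 FPKM in the DXO-KO-labelled libraries. The log2 fold change between the NAD-Capture groups was 1.75 (SE 0.550, limma, unadjusted p = 0.0121, adjusted p = 0.191). In CPM, fragments scaled to a library depth of 1000000 with no length correction, it was 45.2, 20.0 and 16.8 in captured WT RNA and 47.6, 67.7 and 123.9 in the DXO-KO-labelled libraries. The separation is thin in replicate 1 of both groups on either scale.

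EPB41L4A-AS1 had a log2 fold change of 1.04 (SE 0.353, limma, adjusted p = 0.214) and SNHG1 one of 1.12 (SE 0.396, limma, adjusted p = 0.229). In CPM EPB41L4A-AS1 had a mean of 92.5 ± 27.6 (SD, n = 3) in captured WT RNA and 194 ± 67.1 in the DXO-KO-labelled libraries. SNHG1 had 53.6 ± 22.7 and 110.0 ± 22.4 CPM. Both hosts have 1 transcript row, so their CPM is FPKM times a nearly fixed factor. The like ratio on both scales was thus given in advance and is no separate support. All 3 DXO-KO-labelled libraries lay above all 3 of captured WT.

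SNHG7, which holds SNORA17A and SNORA17B, was 37.6 and 45.7 FPKM in RiboMinus, 52.9, 52.4 and 54.9 FPKM in captured WT RNA and 136, 82.9 and 76.4 FPKM in the DXO-KO-labelled libraries. Its log2 fold change between the NAD-Capture groups was 0.82 (SE 0.307, limma, unadjusted p = 0.0263, adjusted p = 0.245). In CPM SNHG7 was 74.1, 78.1 and 67.5 in captured WT RNA and 91.8, 82.6 and 62.4 in the DXO-KO-labelled libraries, so the groups overlapped on that scale. SNHG6 had a log2 fold change of 0.61 (SE 0.282, limma, adjusted p = 0.319) and SNHG12 one of 1.94 (SE 0.864, limma, adjusted p = 0.306). SNHG12 rests on no more than 1 fragment in each captured WT library and on 5.4, 0.9 and 0.9 fragments in the DXO-KO-labelled libraries.

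GAS5 was above captured WT in 2 of the 3 DXO-KO-labelled libraries (log2 fold change 0.85, SE 0.391, limma, adjusted p = 0.317). DANCR had a log2 fold change of -2.45 (SE 1.13, limma, adjusted p = 0.316), with DXO-KO-labelled replicate 1 inside the range of captured WT. Its size rests on the 0 in DXO-KO-labelled replicate 3: it was -0.99 without that library, -3.62 without DXO-KO-labelled replicate 1, -3.58 with a pseudocount of 0.1 and -1.40 from CPM. In CPM DANCR was 40.2, 32.5 and 21.4 in captured WT RNA and 27.7, 8.1 and 0 in the DXO-KO-labelled libraries. For SNHG3, SNHG5, SNHG8, SNHG15, SNHG16, SNHG19, SNHG22 and SNHG29 the log2 fold changes ran from -1.27 (SNHG22) to 0.92 (SNHG8), with limma adjusted p from 0.436 to 0.917, so no difference was resolved. Depth limits these values: SNHG5, for example, rests on 16.7, 6.5 and 16.3 fragments in captured WT RNA and 34.9, 8.7 and 5.1 in the DXO-KO-labelled libraries.

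In the third comparison, the DXO-KO-labelled libraries were set against WT RiboMinus. Each pair of the 3 comparisons shares a group of libraries, so the values are given side by side and not as separate support. EPB41L4A-AS1 and SNHG19 were called higher and SNHG25 lower, 3 of 25 hosts tested, against 3.12% of 14946 genes (2.29% higher and 0.83% lower). The direction of SNHG25, at 0 in the captured libraries, and of SNHG22, at 0 in RiboMinus, was again fixed in advance. EPB41L4A-AS1 had a log2 fold change of 2.14 (SE 0.330, limma, adjusted p = 0.0397), beside 1.10 for captured WT over RiboMinus. SNHG19, the host of SNORD60, was 18.6 and 25.6 FPKM in RiboMinus, 50.6, 29.1 and 134 FPKM in captured WT RNA, and 74.9, 103 and 166 FPKM in the DXO-KO-labelled libraries. All captured libraries lay above RiboMinus, with a log2 fold change of 2.26 (SE 0.391, limma, adjusted p = 0.0484) for the DXO-KO-labelled libraries and 1.38 (SE 0.647, adjusted p = 0.191) for captured WT. The SNHG19 row is paired with a transcript of 342 nt, too short for its values to be turned into fragments. How many fragments its call rests on is therefore unknown.

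GAS5 had a log2 fold change of 2.13 (SE 0.459, limma, adjusted p = 0.0724) in this comparison with RiboMinus and missed the threshold, beside 1.28 for captured WT. ZFAS1 had 1.43 (SE 0.519, adjusted p = 0.197), SNHG7 1.18 (SE 0.325, adjusted p = 0.119), SNHG6 0.81 (SE 0.259, adjusted p = 0.159) and SNHG5 0.78 (SE 0.297, adjusted p = 0.214), all in limma. For these 4 hosts all 3 DXO-KO-labelled libraries lay above both RiboMinus libraries, as they did for 8 hosts in all, against 24.1% of all genes. DANCR had -3.55 (SE 1.48, limma, adjusted p = 0.248) and was among 4 hosts wholly below RiboMinus, against 20.4% of all genes. EPB41L4A-AS1 and SNHG19 lost their call without a filter on low values, SNHG19 also in the fit shared by the 8 libraries, and GAS5 was called in that fit and after quantile normalization. No host was called without either RiboMinus library or without DXO-KO-labelled replicate 2, and there were 6 without replicate 1.

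How a host's FPKM was divided among its transcript rows differed between libraries. Of the 28 hosts, 16 have 1 row and 12 have several, SNHG29 alone 32. In the fit over transcript rows, 8 host rows were called higher and 9 lower in captured WT RNA than in RiboMinus, of 55 tested, against 25.7% of all 24777 rows tested (12.6% higher and 13.1% lower). No row of 48 tested was called between the NAD-Capture groups, against 0.032% of all rows (0.024% higher and 0.008% lower), and 8 had an unadjusted p under 0.05. In the DXO-KO-labelled libraries against RiboMinus, 2 host rows were called higher and 8 lower of 51, against 14% of all rows (4.41% higher and 9.63% lower). These counts include rows at 0 in a whole group, such as NR_027158 of SNHG29 in captured RNA, whose direction was fixed in advance.

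The switches were between rows of the same host. For SNHG29, NR_027166 held 53.9% and 47.9% of the host's FPKM in RiboMinus but 0%, 19.7% and 20.5% in captured WT RNA, where NR_027163 held 73.3%, 63.3% and 59.3%, against 17.7% and 17.1% in RiboMinus. The row NR_027163 had a log2 fold change of 1.98 (SE 0.158, limma, adjusted p = 0.00332) for captured WT over RiboMinus, while the host sum had 0.10. In the DXO-KO-labelled libraries that row held 40.1%, 24.7% and 12.9%. The number of SNHG29 rows above 0 was 15 in each RiboMinus library and between 3 and 8 in the captured ones, which have far fewer fragments.

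SNHG17, a host of SNORA71 copies, showed the same kind of exchange. NR_027241 was 11.3 and 10.7 FPKM in RiboMinus and 0 in all 3 captured WT libraries (log2 fold change adjusted p = 0.00249 in limma), and NR_015366 held all of the host's FPKM there. In the DXO-KO-labelled libraries, NR_027241 held 74.5% in replicate 1 and 100% in replicate 3, and replicate 2 had no SNHG17 fragment. SNHG17 has only 2.8, 1.8 and 6.4 fragments in captured WT RNA and 9.8, 0 and 2.3 in the DXO-KO-labelled libraries, so these shares rest on a handful of fragments.

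SNHG8 and ZFAS1 also divided their FPKM differently from 1 captured library to another. The SNHG8 row NR_034010 was 0 and 3.75 FPKM in RiboMinus, 48.4, 19.2 and 37.8 FPKM in captured WT RNA and 0 in all 3 DXO-KO-labelled libraries. It was called higher in captured WT RNA than in RiboMinus (log2 fold change 3.96, SE 0.848, limma, adjusted p = 0.0374). Between the NAD-Capture groups its p was 6.95e-05 and its limma adjusted p 0.0579, the smallest of the host rows. NR_034010 is paired with 470 nt. On the SNHG5 row of 430 nt, 3 fragments were worth 53.3, 63.2 and 41.7 FPKM in captured WT replicates 1 to 3. They were worth 13.0, 69.8 and 147 FPKM in DXO-KO-labelled replicates 1 to 3. The captured WT values of NR_034010 thus rest on few fragments, and a like level could have been missed in DXO-KO-labelled replicates 2 and 3. The short SNHG8 row NR_034011 (paired with 327 nt) held all of the 676 FPKM in DXO-KO-labelled replicate 3, the library with the strongest rise of FPKM per fragment on short rows. ZFAS1 was led by NR_036659 in 7 of 8 libraries, and in captured WT replicate 2 all of its FPKM was on NR_003605, which was at 0 in RiboMinus. The ZFAS1 row NR_003604 was 24.3 and 22.2 FPKM in RiboMinus and 0 in all captured WT libraries (limma adjusted p = 0.00216). All rows of ZFAS1 together had 8.6, 3.3 and 4.2 fragments in captured WT RNA, so the division among its rows rests on few fragments.

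**Figure D3:**
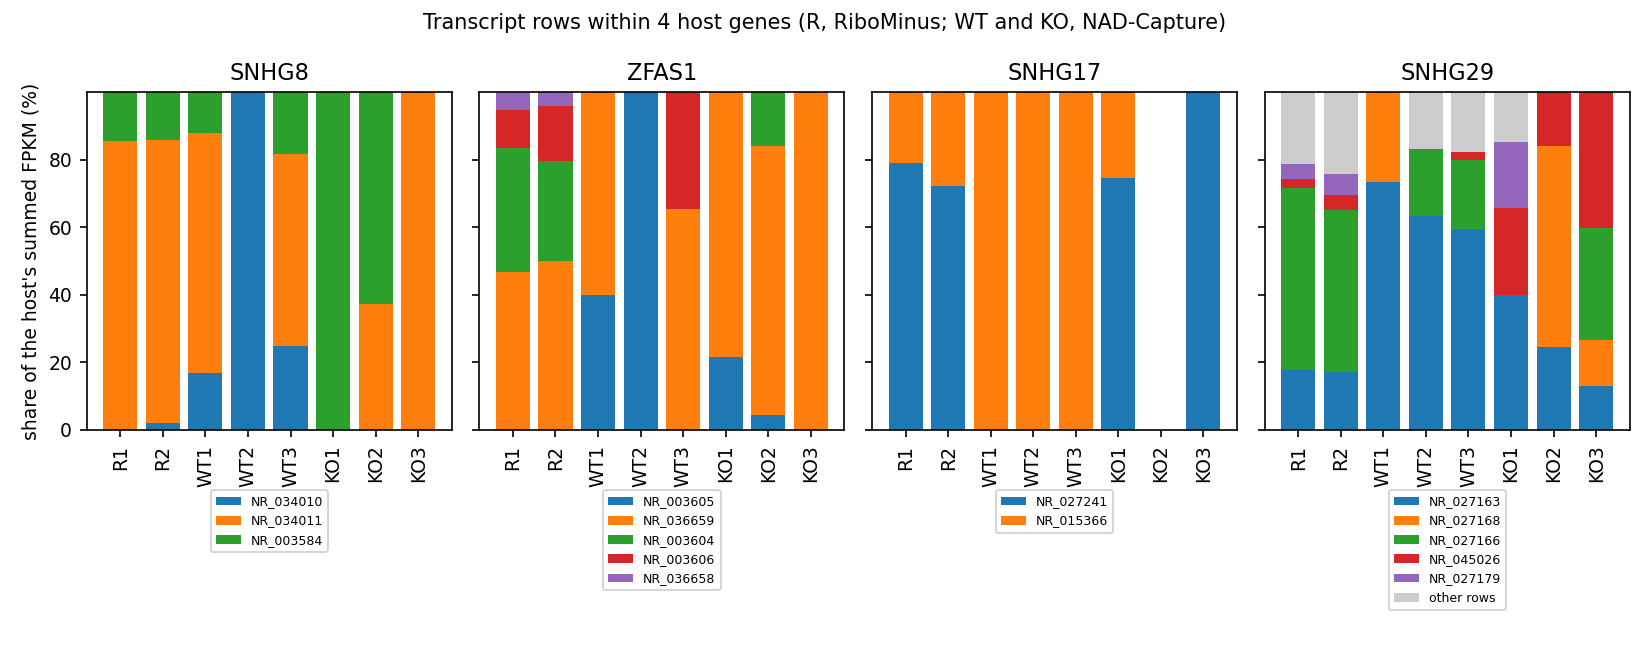
Share of a host's summed FPKM held by each transcript row (y axis, percent) in the 8 libraries (x axis; R1 and R2 are WT RiboMinus, WT1 to WT3 WT NAD-Capture, KO1 to KO3 the DXO-KO-labelled libraries) for SNHG8, ZFAS1, SNHG17 and SNHG29. Colours are the up to 5 rows with the highest share and grey is all other rows; the RiboMinus bars are alike, the captured bars differ from them and from each other, and SNHG17 has no bar in KO2, where it was at 0.

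The snoRNAs inside the host genes were read from the same table. The spans of 27 hosts hold 62 snoRNA and scaRNA genes, of which 56 have a row, 34 box C/D, 18 box H/ACA and 4 scaRNAs. For 48 of the 62 GENCODE gives the strand of the host and for 14 no strand was found. Sequences of 4 of them are printed. SNORA13, SNORA24 and SNORA26 lie in hosts described above and did not overlap between the NAD-Capture groups in FPKM or in CPM, and SNORD22 is the SNHG1 snoRNA that was above 0 in all 8 libraries. They were chosen after their values were seen. The letters are from GENCODE 29 (GRCh38), 5′ to 3′. Capitals mark the ACA box 3 bases from the 3′ end in the H/ACA snoRNAs and the CTGA of box D in SNORD22.
SNORA26 in DANCR (chr4:52713249-52713370, plus strand): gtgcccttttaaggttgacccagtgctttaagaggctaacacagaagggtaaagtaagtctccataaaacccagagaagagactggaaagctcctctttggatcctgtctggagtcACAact
SNORA13 in EPB41L4A-AS1 (chr5:112161485-112161617, plus strand): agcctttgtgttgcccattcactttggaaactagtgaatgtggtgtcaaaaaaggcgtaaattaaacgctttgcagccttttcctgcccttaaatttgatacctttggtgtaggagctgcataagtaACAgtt
SNORA24 in SNHG8 (chr4:118279190-118279320, plus strand): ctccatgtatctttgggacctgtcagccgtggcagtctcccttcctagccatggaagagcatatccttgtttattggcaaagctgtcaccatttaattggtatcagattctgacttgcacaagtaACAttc
SNORD22 in SNHG1 (chr11:62852910-62853035, minus strand): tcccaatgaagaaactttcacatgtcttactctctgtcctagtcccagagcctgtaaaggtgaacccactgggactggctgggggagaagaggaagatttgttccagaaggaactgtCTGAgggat

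Whether such a snoRNA appeared at all went with its length and its class. The rows of 100 nt or more were 2 box C/D, 18 box H/ACA and 4 scaRNAs, so length and class cannot be told apart. Of the 32 rows under 100 nt, all box C/D, 25 were at 0 in all 8 libraries, and 16 of their 256 values were above 0 (6.25%). Of the 24 rows of 100 nt or more, every one was above 0 somewhere and 11 were above 0 in all 8 libraries, with 136 of 192 values above 0 (70.8%). Over all snoRNA rows of the table the shares were 3.01% under 100 nt and 59.0% at 100 nt or more, so host snoRNAs are not set apart by it. GAS5 is the clearest case, with 8 of its 10 snoRNA rows at 0 in every library, and SNHG1 has 6 of 8 at 0. All snoRNA rows of SNHG16 and SNHG29, 3 each, were at 0. The length limit of 100 nt was chosen after the values were seen, and zeros in rows this short do not show that the snoRNA was missing from the cells.

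**Figure D4:**
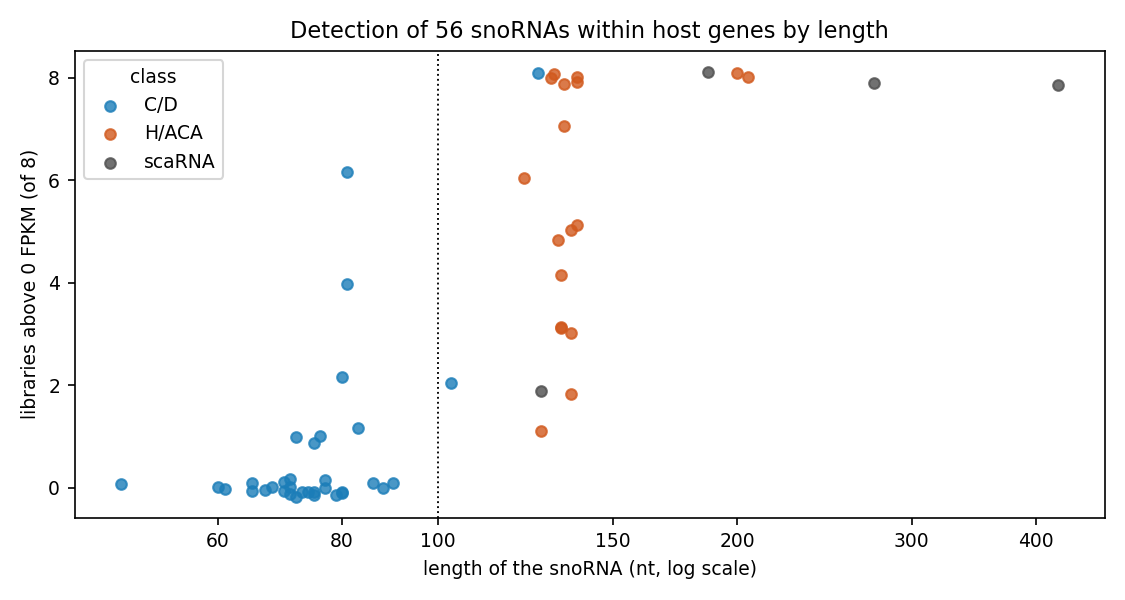
Number of the 8 libraries in which a snoRNA row was above 0 FPKM (y axis, points moved slightly up or down so that they do not hide each other) by its length in nt (x axis, log scale), for the 56 snoRNAs with a row. Blue is box C/D, orange box H/ACA and grey scaRNA, and the dotted line is 100 nt; 25 of 32 points left of it lie at 0 and none of the 24 right of it does.

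The FPKM of 1 fragment on rows this short differed steeply between libraries. A single fragment on a row of 133 nt was worth 449, 502 and 334 FPKM in captured WT RNA, 90.1, 545 and 3059 FPKM in the DXO-KO-labelled libraries and 21.1 and 15.8 FPKM in RiboMinus. Relative to 1 fragment at 1 kb that is 245 times in DXO-KO-labelled replicate 3 and 73.2 to 86.0 times in the other captured libraries. Of the 18 host snoRNA rows of 122 to 138 nt, 17 had values in the captured libraries that could be turned back into whole fragments (at least 80% of a row's low values within 0.15 of a whole number), the exception being SNORA17B. These are given in CPM with 95% Poisson intervals, which cover counting error only. The choice of this scale was made after the values were seen.

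In FPKM, 26 of 29 host snoRNAs tested had a higher mean in the DXO-KO-labelled libraries than in captured WT RNA and 3 a lower one (49.6% of all genes had a higher one), with DXO RNA higher there too. Their median log2 fold change was 2.13, against -0.01 over all genes. Both values include rows whose direction was fixed in advance, as they passed the filter through a single group. SNORD60, SNORD87, SNORD104, SNORA9 and SNORA17A were at 0 in all captured WT libraries and could only count as higher. SNORA71E and SNORA78 were at 0 in all DXO-KO-labelled libraries and could only count as lower. None passed the threshold and 9 had an unadjusted p under 0.05 in limma. The groups did not overlap for 8, all higher, against 11.8% of all genes. Without DXO-KO-labelled replicate 3 the median was 2.50 and 24 of 29 were higher, and without captured WT replicate 3 it was 1.40 with 22 of 29. The 8 are SNORA13, SNORA17B, SNORA24, SNORA26, SNORA71A, SNORA74A, SCARNA13 and SCARNA17, and SNORA17B and SNORA71A have near-identical copies between which fragments could be split. In CPM SNORA71A, in SNHG17, was 31.3, 24.0 and 8.01 in captured WT RNA and 66.5, 36.1 and 49.9 in the DXO-KO-labelled libraries, so it was separated on that scale too.

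SNORA24, an H/ACA snoRNA of SNHG8, had the most fragments of the 4 printed. It was 213 and 157 FPKM in RiboMinus, 1458, 4895 and 1085 FPKM in captured WT RNA, and 8869, 14145 and 26478 FPKM in the DXO-KO-labelled libraries. That is 3, 9 and 3 fragments in captured WT RNA (15.7, 54.1 and 12.02 CPM) and 91, 24 and 8 in the DXO-KO-labelled libraries (112, 173 and 99.7 CPM). The groups did not overlap on either scale, although the interval of captured WT replicate 2 (24.7 to 103 CPM) overlaps those of DXO-KO-labelled replicates 1 and 3 (90.2 to 138 and 43.1 to 196 CPM). SNORA24 was called higher than in RiboMinus both in captured WT RNA (log2 fold change 3.43, SE 0.673, limma, adjusted p = 0.0211) and in the DXO-KO-labelled libraries (6.34, SE 0.737, adjusted p = 0.0229), and not between the NAD-Capture groups (2.91, SE 0.866, adjusted p = 0.179).

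SNORA26, in DANCR, was 0 and 88.3 FPKM in RiboMinus, 722, 1624 and 0 FPKM in captured WT RNA, and 4782, 4357 and 14617 FPKM in the DXO-KO-labelled libraries. In fragments that is 1, 2 and 0 against 33, 5 and 3, or 5.22, 12.01 and 0 CPM against 40.6, 36.1 and 37.4 CPM. The 3 DXO-KO-labelled libraries stood close together and above all of captured WT (log2 fold change in FPKM 5.995, SE 2.38, limma, adjusted p = 0.270). Its host DANCR had the opposite sign between the same groups, and the difference between host and snoRNA was not tested.

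SNORA13, in EPB41L4A-AS1, was at 0 in both RiboMinus libraries, 0, 502 and 0 FPKM in captured WT RNA, and 2161, 1091 and 6119 FPKM in the DXO-KO-labelled libraries. It had 0, 1 and 0 fragments in captured WT RNA and 24, 2 and 2 in the DXO-KO-labelled libraries, or 29.5, 14.5 and 24.9 CPM in the latter. The limma adjusted p was 0.144 between the NAD-Capture groups and 0.00743 for the DXO-KO-labelled libraries against RiboMinus, where it is listed at 0 and no fold is given. Here host and snoRNA both had higher values in every DXO-KO-labelled library than in any of captured WT.

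SNORD22, in SNHG1, is a C/D snoRNA of unusual length for its class in this set and was above 0 in all 8 libraries. It was 129 and 138 FPKM in RiboMinus, 4799, 4714 and 896 FPKM in captured WT RNA, and 4336, 6535 and 24443 FPKM in the DXO-KO-labelled libraries. In fragments that is 8, 7 and 2 against 36, 9 and 6, or 41.8, 42.1 and 8.01 CPM against 44.3, 65.1 and 74.8 CPM. The NAD-Capture groups overlapped in FPKM and were separated by a small margin in CPM (log2 fold change in FPKM 1.70, SE 0.989, limma, adjusted p = 0.404). It was called higher than in RiboMinus in captured WT RNA (4.34, SE 0.793, limma, adjusted p = 0.0172) and in the DXO-KO-labelled libraries (6.04, SE 0.850, adjusted p = 0.0327).

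**Figure D5:**
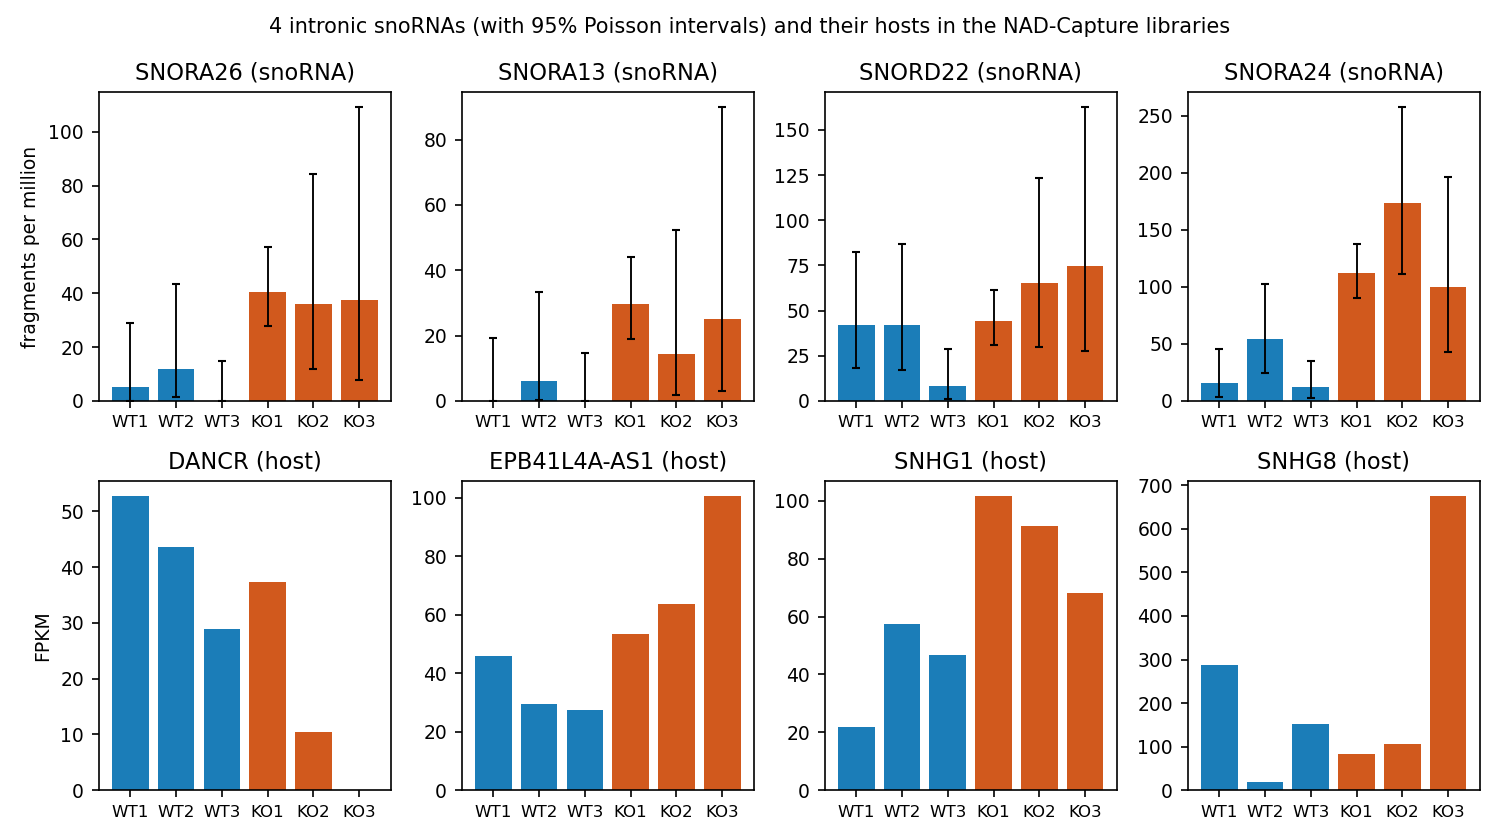
Upper row: fragments scaled to a depth of 1000000 (CPM, y axis) of SNORA26, SNORA13, SNORD22 and SNORA24 in the 3 WT NAD-Capture libraries (blue, WT1 to WT3) and the 3 labelled DXO-KO (orange, KO1 to KO3), with 95% Poisson intervals as lines. Lower row: FPKM (y axis) of the host of each in the same libraries; SNORA26 is at 36.1 to 40.6 CPM in the orange bars while its host DANCR is at 37.4, 10.4 and 0 FPKM.

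In all, 2 host snoRNAs were called higher and 2 lower in captured WT RNA than in RiboMinus, and 6 higher and none lower in the DXO-KO-labelled libraries, of 29 tested each time, beside 24.5% and 3.12% of all genes. These counts too include rows at 0 in a whole group, whose direction was fixed in advance. Of those called, SNORA13 was at 0 in RiboMinus and could only count as higher. The 2 lower ones, SNORA9 in SNHG15 and SNORA17A in SNHG7, were 63.3 and 126 FPKM and 15.4 and 15.7 FPKM in RiboMinus and 0 in captured WT RNA, where 1 fragment at 133 nt was worth at least 334 FPKM, so a like level was not detectable there. In the DXO-KO-labelled libraries, SNORA9 was 180, 0 and 0 FPKM and SNORA17A was 83.6, 0 and 0 FPKM. Beside SNORA13, SNORA24 and SNORD22, the 6 called in the DXO-KO-labelled libraries were SNORA16A, SCARNA13 and SCARNA17. SNORA16A, in SNHG12, was 39.9 and 15.01 FPKM in RiboMinus, 865, 1449 and 0 FPKM in captured WT RNA, and 1560, 1050 and 2944 FPKM in the DXO-KO-labelled libraries (log2 fold change over RiboMinus 6.05, SE 0.603, limma, adjusted p = 0.0206).

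The 2 scaRNAs lie on longer rows than the snoRNAs printed above. SCARNA13, in SNHG10, was 339 and 296 FPKM in RiboMinus, 123, 280 and 424 FPKM in captured WT RNA, and 1529, 1947 and 2825 FPKM in the DXO-KO-labelled libraries. Its log2 fold change was 2.68 over RiboMinus (SE 0.443, limma, adjusted p = 0.0451) and 3.05 over captured WT (SE 0.512, adjusted p = 0.0778). SCARNA17, in SNHG22, was 23.3 and 27.4 FPKM in RiboMinus, 19.5, 89.7 and 118 FPKM in captured WT RNA, and 291, 159 and 291 FPKM in the DXO-KO-labelled libraries. Its log2 fold change was 3.18 over RiboMinus (SE 0.347, limma, adjusted p = 0.0214) and 1.98 over captured WT (SE 0.630, adjusted p = 0.194). In both scaRNAs the 3 DXO-KO-labelled libraries lay above all 5 others, while for their hosts SNHG10 and SNHG22 the DXO-KO-labelled libraries overlapped both other groups. Without either RiboMinus library at most 1 host snoRNA was called in this comparison.

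The leading snoRNAs of the other hosts were read less often or not resolved. SNORA73B, in SNHG3, was the highest host snoRNA in RiboMinus at 8943 and 8254 FPKM, with 17350, 25523 and 7258 FPKM in captured WT RNA and 6853, 36605 and 152740 FPKM in the DXO-KO-labelled libraries, where the groups overlapped. SNORD79, in GAS5, was 0 and 1248 FPKM in RiboMinus, 43170, 58616 and 0 FPKM in captured WT RNA, and 9616, 65995 and 214564 FPKM in the DXO-KO-labelled libraries, on a row of 81 nt. SNORD12B of ZFAS1 was above 0 in captured WT replicate 2 (2650 FPKM) and in DXO-KO-labelled replicate 3 (28841 FPKM) alone. SNORD104 of SNHG25 was above 0 in RiboMinus replicate 2 (1396 FPKM) and DXO-KO-labelled replicate 1 (13440 FPKM), SNORD60 of SNHG19 in the latter library alone (5666 FPKM) and SNORD50A of SNHG5 in RiboMinus replicate 2 alone (2459 FPKM). Values this scattered show only which libraries held a fragment.

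Other genes of the pathway were counted from lists chosen with earlier results of these data known. Of 69 protein-coding genes listed as snoRNA hosts, 63 hold a snoRNA in their span and 68 were tested. After capture in WT cells 12 were called higher and 18 lower, against 16.5% and 7.94% of all genes, with a median log2 fold change of -0.41 against 0.20 over all genes. The ribosomal protein genes RPL23 (3.27, SE 0.203, limma, adjusted p = 0.00216) and RPS20 (2.98, SE 0.209, adjusted p = 0.00232) had the smallest p of those higher, and RCC1 and KPNB1, an import receptor (-1.87, SE 0.159, adjusted p = 0.00283), of those lower. None was called between the NAD-Capture groups, 55 of 68 had a higher mean in the DXO-KO-labelled libraries (against 49.6% of all genes), and the median was 0.34 against -0.01 over all genes. The noncoding hosts, at 13 of 25, were more evenly split, and the difference was not tested.

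Of 19 nonsense-mediated decay factors, 1 was called higher after capture in WT cells, the exon junction protein gene MAGOH (1.29, SE 0.228, limma, adjusted p = 0.0159), and 4 lower, among them SMG5 (-1.72, SE 0.215, adjusted p = 0.00632) and EIF4A3 (-1.78, SE 0.271, adjusted p = 0.0105). All genes were called at 24.5% (16.5% higher and 7.94% lower), so these 5 of 19 are near the background only with both directions together. By direction they leaned to lower. A lower mean was found for 15 and a higher one for 4, with a median log2 fold change of -0.61 against 0.20 over all genes. That lean was not tested. None was called between the NAD-Capture groups, where 17 of 19 had a higher mean in the DXO-KO-labelled libraries, against 49.6% of all genes, and the smallest p was that of UPF3B (1.95, SE 0.439, limma, adjusted p = 0.112). Of 32 other long noncoding RNAs tested, 10 were called higher and 1 lower after capture in WT cells, against 16.5% and 7.94% of all genes, among them the imprinted H19 (5.41, SE 0.381, limma, adjusted p = 0.00232) and MEG3, which was listed at 0 in RiboMinus and was 11.8, 28.1 and 23.1 FPKM in captured WT RNA (limma adjusted p = 0.00379). Between the NAD-Capture groups none was called.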

How the data were processed

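The authors deposited FPKM per RefSeq transcript and library. Per the submitters' processing notes, TopHat2 2.1.1, Bowtie2 2.2.8.0 and Cuffdiff were used with build hg19, with no role given for each; normalization between libraries is not given in the sources used here. Copy suffixes of row IDs were removed and RefSeq (GRCh38.p14) then gave a symbol for 52028 of 53216 rows (97.8%). FPKM were summed per symbol. Differences were tested with limma 3.58.1 (R 4.3.3, eBayes with trend) on log2(FPKM + 1), for genes whose mean over the compared libraries reached 1 FPKM; p-values are two-sided, were adjusted over all genes by Benjamini-Hochberg, and had a threshold of 0.05; fold changes on this scale understate those of low genes. The method was tested on simulated data. Python 3.11.15, pandas 2.3.3, numpy 2.4.6, scipy 1.17.1 and matplotlib 3.10.9 did the rest.

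The value of 1 fragment came from single-row transcripts of 1500 to 6000 nt, taking length minus 200 nt as effective length; 70.9% to 73.3% of low values fell no further than 4% from a multiple of it. FPKM of genes with several rows are not whole, so no count model was run. Lengths came from GENCODE 29. Members and lists were chosen with earlier results of these data known. Values are given for hosts past the threshold and for the 10 highest in RiboMinus, with the leading snoRNA of each and every snoRNA called. Coordinates belong to the sequences' own build. SNHG14, SNHG26, SNHG28, SNHG30 and SNHG32 have no row under the rule and were not analysed here.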

Additional observations from a re-analysis of the deposited data

How the results depend on the processing

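Alternatives were a pseudocount of 0.1, no filter, a mean FPKM of at least 10, centring on the median gene, quantile normalization, a shared fit of the 8 libraries, blocking on replicate number, transcript rows and leaving out each library. Between the NAD-Capture groups 6 genes were called; centring gave 13, quantile normalization 28, the shared fit 439 (with 1 host snoRNA), and leaving out a library 4 to 15 genes and 0 to 1 host snoRNAs. No host was called there under any of these. For WT NAD-Capture against RiboMinus 4126 genes were called; the filter of 10 gave 2341, quantile normalization 2374, the shared fit 2602 and transcript rows 6363, and the shared fit gave 3 called hosts (SNHG3, SNHG25 and SNHG1, while GAS5, EPB41L4A-AS1, DANCR and SNHG22 lost their call) and 2 host snoRNAs. Leaving out a library gave 18 to 5268 genes, 0 to 10 hosts and 1 to 10 host snoRNAs. For DXO-KO-labelled libraries against RiboMinus 466 genes were called; no filter gave 66 (1 host and 1 host snoRNA), quantile normalization 799, the shared fit 853 and transcript rows 3148. Leaving out a library gave 0 to 1438 genes, 0 to 6 hosts and 0 to 9 host snoRNAs.

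Same-numbered NAD-Capture libraries did not deviate together (correlations over genes of -0.017, -0.0058 and -0.033). At these depths counting noise could hide a shared deviation, so whether they share more than a number cannot be told. With the replicate block, 0 genes, 0 hosts and 0 host snoRNAs were called in both comparisons with RiboMinus, and no host between the NAD-Capture groups. With the block the sign changed for SNHG29 (-0.053 for WT NAD-Capture and -0.116 for DXO-KO-labelled libraries against RiboMinus) and for ZFAS1 (0.030 for WT NAD-Capture).

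Signs of uncalled hosts also moved. Between the NAD-Capture groups SNHG29 became -0.21 (quantile) and -1.36 (transcript rows), and leaving out a library gave -0.21 to 0.55. SNHG5 became 0.034 (centred), with -0.39 to 0.16 on leaving out a library. That range was -0.21 to 1.71 for SNHG8, -0.50 to 0.18 for SNHG16 and -1.90 to 0.79 for SNHG15, which was 0.12 from depth-scaled fragments, an alternative chosen after seeing the data. In WT NAD-Capture against RiboMinus SNHG29 became -0.36 (centred) and -0.68 (quantile) and SNHG6 -0.26 (centred). Leaving out a library gave -0.053 to 0.26 for SNHG29, -1.81 to 0.11 for SNHG8 and -0.81 to 0.030 for ZFAS1. In DXO-KO-labelled libraries against RiboMinus SNHG29 became -0.021 (centred) and -0.96 (quantile), with -0.12 to 0.65 on leaving out a library, and SNHG8 ranged from -1.05 to 0.46. The cause was not tested.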

Other observations

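Short C/D snoRNAs of the hosts took up large shares of FPKM on what may be single fragments. SNORD87, in SNHG6, was listed at 5369880 FPKM in replicate 2 labelled DXO-KO, 62.7% of the summed FPKM of that library, and at 0 in the other 7. In the same library the GAS5 snoRNAs SNORD76 and SNORD79, both of 81 nt, were at 131990 and 65995 FPKM, a ratio of 2.0. All host snoRNAs together held 4.23% to 7.84% of the summed FPKM in the other 7 libraries. The host genes themselves held 0.0253% to 0.404%.

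Of 69 host transcript rows paired with a GENCODE transcript, 2 contain the sequence of a snoRNA of the same host. NR_003098 of SNHG1 contains SNORD25, and NR_003672 of SNHG7 contains SNORA17A and SNORA17B. NR_003672 was 7.38 and 9.19 FPKM in RiboMinus, 30.7, 34.8 and 24.9 FPKM in WT NAD-Capture (log2 fold change 1.74, SE 0.239, limma over transcript rows, adjusted p = 0.0114), and 7.52, 23.2 and 14.3 FPKM in the libraries labelled DXO-KO.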
